A study of Mus musculus with 4 samples.

Results

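The 7 complex I subunit mRNAs that the mouse mitochondrial genome encodes, mt-Nd1, mt-Nd2, mt-Nd3, mt-Nd4, mt-Nd4l, mt-Nd5 and mt-Nd6, were compared between isolated mitochondria and a second RNA fraction of brown adipose tissue. They were taken by gene name from a table of 17259 genes, and all 7 were listed and above 0 in every library. RNA came from brown adipose tissue of wild-type (WT) mice, with 2 libraries of isolated mitochondria (BAT-Mito) and 2 of a fraction titled BAT-total. The treatment label of BAT-total names tissue from which mitochondria were taken away, whereas the study also speaks of lysates of the whole tissue. Genes of the mitochondrial genome took 51.1% and 59.3% of the normalised counts of BAT-total. Whether and how far mitochondria were removed from it is not known. Age, sex and any pooling of animals are not given in the sources used here, and all 4 libraries share the genotype. Nothing says that the replicates came from separate animals, so p-values measure the spread between these libraries only, which may be technical.

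Complex I, NADH:ubiquinone oxidoreductase, takes electrons from NADH into the respiratory chain and pumps protons, and in brown fat the proton gradient is dissipated as heat through UCP1. Its subunits come from both genomes of the cell, and those made inside mitochondria form the core of the membrane arm. ND2, ND4 and ND5 are the antiporter-like subunits of the proton pump, ND1 contributes to the ubiquinone site, and ND3, ND4L and ND6 lie between these parts. Both strands of the mitochondrial genome are transcribed into long precursors that are cut mostly at tRNAs, and ND6 is the one mRNA transcribed from the light strand.

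The reference genes show how closely the members are packed and how they begin. The first bases of each member are given below, 5′ to 3′, with the start codon in capitals, because the start codons differ and because mt-Nd6 alone reads on the minus strand of the reference. Sequences and positions come from the GENCODE M21 annotation of GRCm38.
mt-Nd1 (chrM:2751-2780, plus): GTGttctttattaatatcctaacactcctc
mt-Nd2 (chrM:3914-3943, plus): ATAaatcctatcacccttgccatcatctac
mt-Nd3 (chrM:9459-9488, plus): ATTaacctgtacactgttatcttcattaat
mt-Nd4l (chrM:9877-9906, plus): ATGccatctaccttcttcaacctcaccata
mt-Nd4 (chrM:10167-10196, plus): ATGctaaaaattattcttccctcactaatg
mt-Nd5 (chrM:11742-11771, plus): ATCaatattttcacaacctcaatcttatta
mt-Nd6 (chrM:14041-14070, minus): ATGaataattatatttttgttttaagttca

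The coding sequence of mt-Nd6 is also unlike the others in base composition. G made up 28.1% and C 5.97% of its 519 bp, whereas G made up 7.996% (mt-Nd2) to 11.6% (mt-Nd1) of the 6 heavy-strand members. The members were 297 bp (mt-Nd4l), 348 bp (mt-Nd3), 957 bp (mt-Nd1), 1038 bp (mt-Nd2), 1378 bp (mt-Nd4) and 1824 bp (mt-Nd5) long, and none has an intron. Some of them share bases. The end of mt-Nd4l and the start of mt-Nd4 overlap by 7 bp on the same strand, and the ends of mt-Nd5 and mt-Nd6 overlap by 14 bp on opposite strands. Both overlaps are shown in capitals, since reads that touch them belong to more than one gene.
mt-Nd4l end (chrM:10144-10173, plus): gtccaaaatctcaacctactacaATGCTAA
mt-Nd4 start (chrM:10167-10196, plus): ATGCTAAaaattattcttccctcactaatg
mt-Nd5 end (chrM:13536-13565, plus): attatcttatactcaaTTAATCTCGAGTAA
mt-Nd6 end (chrM:13552-13581, minus): tttattattatcgagaTTACTCGAGATTAA

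Nuclear copies of mitochondrial DNA decide how well each member can be counted. A cluster on the minus strand of chromosome 1 holds 3 listed pseudogenes that match members almost base for base. Gm28438 (chr1:24612775-24613119) matched the first 345 bp of mt-Nd3 at 99.7%, with the single substitution T3C, counted from the first base of mt-Nd3 and with the base of mt-Nd3 first. Gm10222 (chr1:24612407-24612700) matched 294 of the 297 bp of mt-Nd4l at 100%, and Gm28439 (chr1:24611535-24612410) the first 876 bp of mt-Nd4 at 100%. The start of mt-Nd3 and of its copy are shown with the base that differs in capitals.
mt-Nd3 (chrM:9459-9488, plus): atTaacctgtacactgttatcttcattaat
Gm28438 (chr1:24613090-24613119, minus): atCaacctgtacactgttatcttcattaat

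Of all stretches as long as the 75-base reads, 6 of 274 in mt-Nd3, 3 of 223 in mt-Nd4l and 502 of 1304 in mt-Nd4 occurred in no listed copy. In mt-Nd1 and mt-Nd6 all stretches were of this kind, 883 and 445, as were 909 of 964 in mt-Nd2 and 1721 of 1750 in mt-Nd5. The values of the copies relative to the members differed from pair to pair. Gm28438 over mt-Nd3 was 0.991 and 0.983 in BAT-Mito and 0.994 and 1.00 in BAT-total, and Gm10222 over mt-Nd4l was 1.01 in all 4 libraries. Gm28439 over mt-Nd4 was 0.257 and 0.258 in BAT-Mito and 0.316 and 0.330 in BAT-total, with no overlap between the fractions. For mt-Nd2 the copy Gm13339 on chromosome 2 (96.7% over 510 bp) stood at 0.0704 and 0.0698 of the member in BAT-Mito and at 0.0502 and 0.0506 in BAT-total. The copies of mt-Nd5 (Gm11407 and Gm4076) and of mt-Nd6 (Gm11408) stayed under 0.002 of their members, and mt-Nd1 had no listed copy. The methods of the study state that reads of several positions were left out. mt-Nd4l nevertheless had 36934 and 35285 reads in BAT-Mito, with only 3 of 223 stretches in no listed copy. The values of this pair thus do not bear out that statement, and how reads of such pairs were divided is not given. The values of mt-Nd3, mt-Nd4l and, over its first part, mt-Nd4 are therefore uncertain, and levels are given below also with the copies added to the members.

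**Figure D1:**
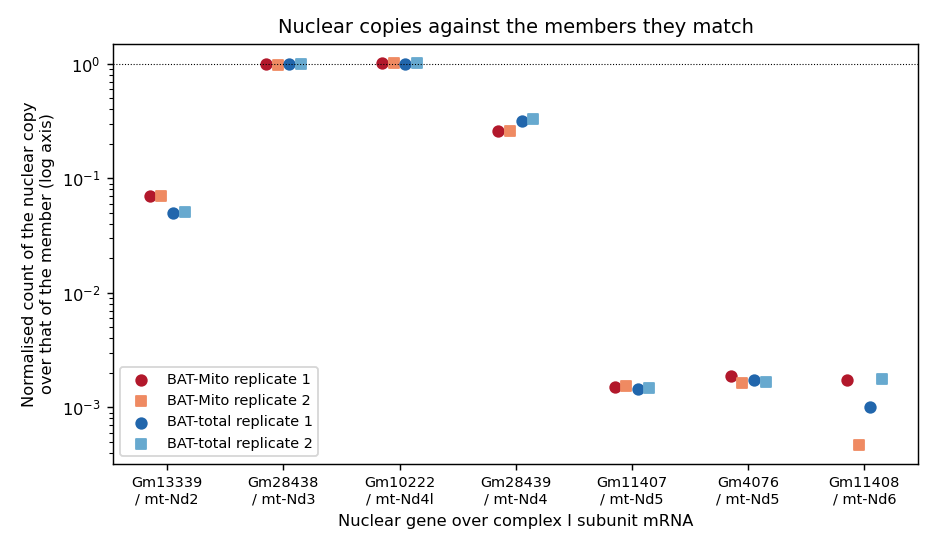
Normalised count of each listed nuclear copy divided by that of the member it matches (log axis), with 1 point per library. The copies of mt-Nd3 and mt-Nd4l sit at about 1 in all 4 libraries, the copy of mt-Nd4 at 0.257 to 0.330, and the copies of mt-Nd5 and mt-Nd6 under 0.002.

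The libraries differed in their normalised totals and in what else they held. BAT-Mito totalled 26288871 and 24910434 recovered reads, and the normalised totals were 218773335 and 171918657 in BAT-Mito against 1590096 and 1905303 in BAT-total, whose read numbers are unknown. All 12 brown adipocyte markers were listed, with summed normalised counts of 14466 and 12924 in BAT-total and 3062 and 8240 in BAT-Mito. Hepatocyte markers (5 of 5 listed) summed to 9062 and 629 in BAT-Mito against 152 and 4 in BAT-total, skeletal muscle markers (6 of 6) to 2921 and 939 against 272 and 563, and heart markers (2 of 4) to 208 and 648 against 2 and 1. Endothelial markers (4 of 4) went the other way, with 84 and 35 against 946 and 979. Macrophage markers (4 of 4) summed to 175 and 165 against 35 and 39, and red blood cell markers (4 of 4) to 225 and 628 against 290 and 611. Their part in the results on the members was not tested. Library preparation may have differed along with the fraction, since the study adjusted fragmentation for mitochondrial RNA. Its methods, written for heart, also treat isolated mitochondria with digitonin and RNase A before RNA is taken. Such handling and the fraction cannot be told apart here. In a bulk fraction, fewer mitochondria and less of an mRNA per mitochondrion cannot be told apart either.

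With the deposited scaling all 7 members rose in BAT-Mito. The values are normalised counts per gene, which are read counts divided by a factor per library and are not corrected for gene length. The antiporter-like subunits came first by role. mt-Nd2 stood at 1521993 and 1209635 in BAT-Mito and at 8051 and 11354 in BAT-total. mt-Nd4 stood at 2630879 and 2018690 against 9720 and 14026. mt-Nd5 stood at 3085879 and 2688170 against 10327 and 16379. In these 3 the lower BAT-Mito library exceeded the higher BAT-total library by 107-fold, 144-fold and 164-fold, and replicate 1 was the higher library in BAT-Mito but the lower one in BAT-total. mt-Nd1, of the ubiquinone site, had 3454681 and 2548278 against 15805 and 19331. mt-Nd3, whose product lies where both arms of the enzyme meet, had 140898 and 115737 against 841 and 1036. mt-Nd4l, the smallest member, had 307361 and 243517 against 1289 and 1667. Here too the fractions lay far apart, without overlap. mt-Nd6, the light-strand member, had 197579 and 116351 in BAT-Mito and 1000 and 1141 in BAT-total. Between the BAT-Mito libraries mt-Nd6 differed by 1.698-fold, more than the 1.15-fold (mt-Nd5) to 1.36-fold (mt-Nd1) of the heavy-strand members. Between the BAT-total libraries it differed by 1.14-fold, less than their 1.22-fold (mt-Nd1) to 1.59-fold (mt-Nd5). The BAT-Mito values rested on 16931 and 16770 reads for mt-Nd3, the member with the fewest in both libraries together, and on 415131 and 369239 for mt-Nd1.

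**Figure D2:**
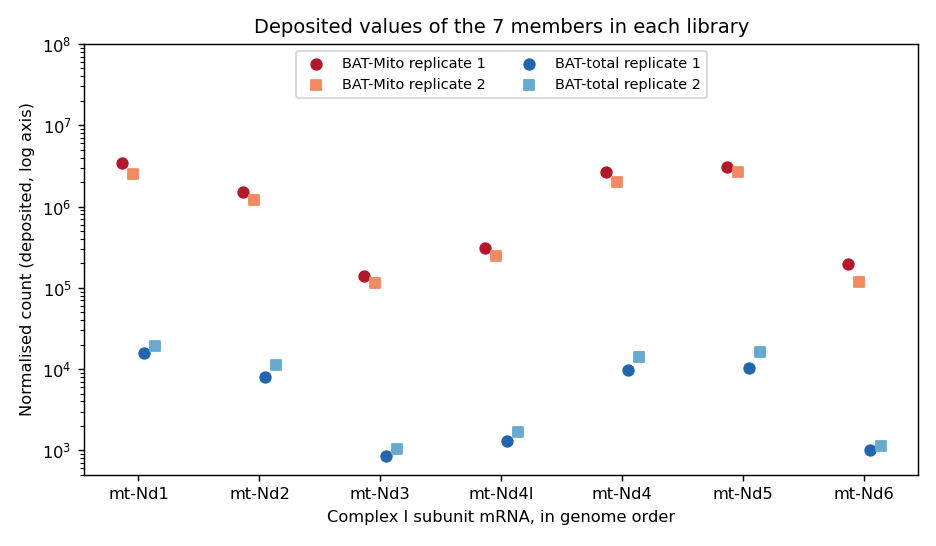
Deposited normalised counts of the 7 members in genome order (log axis), with 1 point per library. BAT-Mito lies between 115737 and 3454681 and BAT-total between 841 and 19331, and for each member both BAT-Mito points lie above both BAT-total points.

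On the scale of log2(normalised count + 1), limma with Benjamini-Hochberg adjustment called 7 of 7 members higher in BAT-Mito, against 66 of 8215 genes tested (0.803%), and 0 of 7 lower, against 362 genes (4.41%). The number of genes called lower fell to 1 with a pseudocount of 10 and to 11 of 2481 with a mean of at least 50, while all 7 members were called higher in both. The log2 fold change was 7.79 (SE 0.49) for mt-Nd5, 7.62 (SE 0.48) for mt-Nd4 and 7.54 (SE 0.45) for mt-Nd4l. It was 7.41 (SE 0.45) for mt-Nd1, 7.15 (SE 0.47) for mt-Nd2, 7.15 (SE 0.51) for mt-Nd6 and 7.09 (SE 0.44) for mt-Nd3, and the adjusted p from limma was 0.0249 for each. The SE of each member exceeded the distance to the member next to it in this order. The median of the members was 7.41, against -1.23 over all genes tested. Without BAT-total replicate 1 or without replicate 2 none of the 7 was called (adjusted p from limma 0.798 and 0.912), with medians of 7.26 and 7.55 and all 7 at an unadjusted p under 0.05. In these fits the lone BAT-total library is assumed to vary like BAT-Mito, and 0 of all 7871 and 7866 genes tested were called, so the lost calls were not particular to the members. All 7 were called without either BAT-Mito library, in fits that called 511 of 8229 and 672 of 8517 genes higher.

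The size of this difference depended on the scaling between libraries. With CPM, in which each library has an equal total, the log2 fold changes were 0.99 for mt-Nd5, 0.82 for mt-Nd4, 0.74 for mt-Nd4l, 0.61 for mt-Nd1, 0.35 for mt-Nd2 and mt-Nd6 and 0.30 for mt-Nd3. None of the 7 was called by limma on that scale (adjusted p 0.0853 to 0.538, 0 at an unadjusted p under 0.05), where 13 of all 8215 genes were called higher and 7963 lower, and the median of all genes moved to -7.15. With TMM, a trimmed mean of ratios, the median of the members was 7.76 against -0.90 for all genes, and with median ratios over genes outside the mitochondrial genome it was 8.06 against -0.62. The members thus stood 8.64 above the median of all genes with the deposited scaling and 7.76 above it with CPM. Direction and order of the members were the same under these scalings, except for mt-Nd2 and mt-Nd6, whose fold changes differed by less than 0.01. A factor per library moves all genes by nearly the same amount, so the order was fixed in advance.

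**Figure D3:**
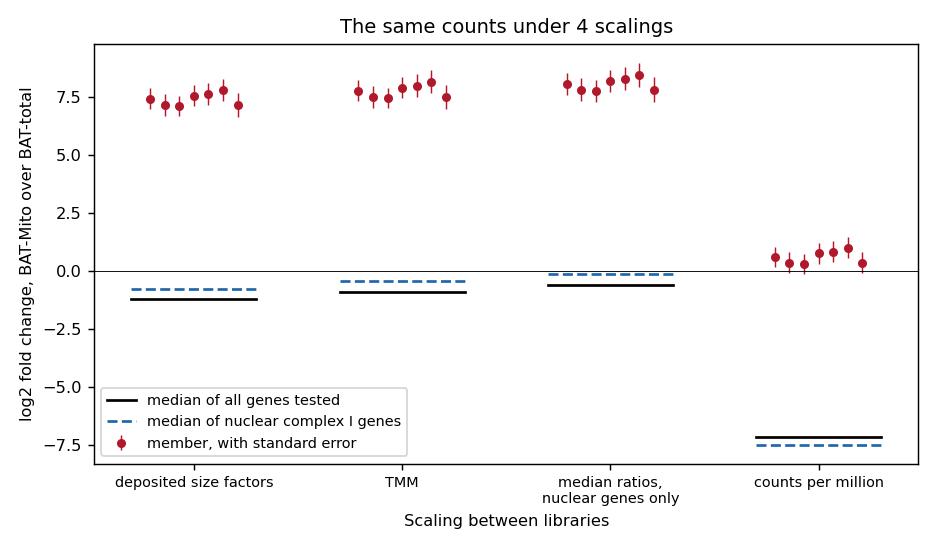
log2 fold change of BAT-Mito over BAT-total for the 7 members in genome order (points with limma standard error) under 4 scalings, with the median of all 8215 genes tested (solid line) and of 36 nuclear complex I genes (dashed line). The members sit between 7.09 and 7.79 with the deposited size factors and between 0.30 and 0.99 with CPM.

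As a share of all counts, which no scaling factor changes, the members took more of BAT-Mito than of BAT-total, but less as a share of mitochondrial genome RNA. They took 5.18% (95% Wilson interval 5.17 to 5.19%) of the reads in BAT-Mito replicate 1 and 5.20% (5.19 to 5.21%) in replicate 2, where the interval covers counting error only. In BAT-total they took 2.96% and 3.41% of the normalised counts. The means were 5.19% ± 0.0122 and 3.18% ± 0.318 (SD, n = 2 each), a ratio of 1.63, and the groups did not overlap (exact permutation test, two-sided p = 0.333, the smallest that 2 against 2 libraries allow). The rRNA genes mt-Rnr1 and mt-Rnr2 weighed on these shares, with 81.6% and 82.4% of BAT-Mito and 43.3% and 50.6% of BAT-total. With both left out of the totals the members took 28.1% and 29.5% of BAT-Mito and 5.21% and 6.90% of BAT-total, a ratio of 4.76. All 37 genes of the mitochondrial genome together took 95.4% ± 0.152 of BAT-Mito and 55.2% ± 5.81 of BAT-total (SD, n = 2 each), a ratio of 1.73. Of that RNA the members held 5.44% and 5.45% in BAT-Mito and 5.79% and 5.75% in BAT-total, a ratio of 0.943 without overlap (exact permutation test, two-sided p = 0.333).

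Among the 13 mitochondrial mRNAs the share of complex I mRNAs differed between the fractions by less than its spread. The members held 38.2% and 40.0% of the normalised counts of these mRNAs in BAT-Mito and 38.7% and 40.0% in BAT-total, with means of 39.1% ± 1.29 and 39.4% ± 0.948 (SD, n = 2 each). The difference of -0.229 percentage points was smaller than the spread of either group (exact permutation test, two-sided p = 1). The values of the single members in this pool are given as a description, since no member passed a test for a difference (exact permutation p of 0.333 or 0.667 for each, where 0.333 is the smallest possible). mt-Nd2 held 5.13% and 5.42% of it in BAT-Mito against 6.62% and 6.999% in BAT-total, mt-Nd3 0.475% and 0.518% against 0.692% and 0.639%, and mt-Nd6 0.666% and 0.521% against 0.823% and 0.703%. These 3 were lower in both BAT-Mito libraries than in either BAT-total library. mt-Nd5 held 10.4% and 12.04% against 8.49% and 10.1%, and mt-Nd4 8.87% and 9.04% against 7.995% and 8.65%. For both the BAT-Mito libraries lay above the BAT-total libraries, but the nearest libraries of the fractions were closer to each other than the replicates of BAT-total, and with nuclear copies added the fractions overlapped for mt-Nd4 relative to the heavy-strand mRNAs (log2 difference 0.06). mt-Nd1 held 11.5% ± 0.162 against 12.5% ± 0.767 (SD, n = 2 each), with both BAT-Mito libraries below both BAT-total libraries but the nearest of them closer than the replicates of BAT-total, and relative to the heavy-strand mRNAs its fractions overlapped. For mt-Nd4l, at 1.04% and 1.09% against 1.06% and 1.03%, the fractions overlapped.

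The same question was put to the fit over all genes, after the mean log2 value of the 12 heavy-strand mRNAs had been subtracted in each library. The differences between BAT-Mito and BAT-total were then 0.30 (SE 0.64) for mt-Nd5, 0.14 (SE 0.63) for mt-Nd4, 0.06 (SE 0.63) for mt-Nd4l, -0.08 (SE 0.63) for mt-Nd1, -0.34 (SE 0.63) for mt-Nd2, -0.34 (SE 0.65) for mt-Nd6 and -0.39 (SE 0.63) for mt-Nd3. None of the 7 members was called (adjusted p from limma 0.569 to 0.933, 0 at an unadjusted p under 0.05). Of all genes tested, 0.0243% were called higher and 97.4% lower on this scale, on which nearly all nuclear genes lie far below the mitochondrial mRNAs. edgeR on reads also called 0 of 7 (adjusted p 0.111 to 0.885), and the smallest adjusted p of any member in any alternative was 0.0731, for mt-Nd3 with a trend in the limma prior. The standard errors come from a spread shared with all genes and exceed the distances between single libraries. For mt-Nd3 the values relative to the 12 mRNAs were -3.37 and -3.27 in BAT-Mito and -2.88 and -2.98 in BAT-total, and for mt-Nd2 0.06 and 0.11 against 0.38 and 0.47. For mt-Nd6 they were -2.88 and -3.27 against -2.63 and -2.84, so that BAT-Mito replicate 1 lay next to BAT-total replicate 2. The groups did not overlap for any of these 3, and for mt-Nd6 the gap between the nearest libraries was smaller than the distance between replicates.

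**Figure D4:**
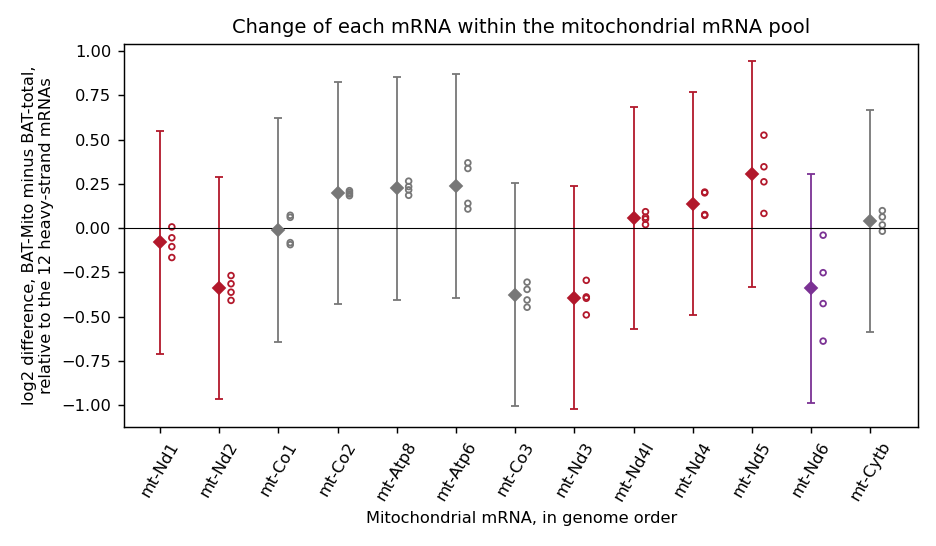
log2 difference of BAT-Mito minus BAT-total for the 13 mitochondrial mRNAs in genome order, relative to the mean of the 12 heavy-strand mRNAs. Diamonds give the limma estimate with its standard error and open circles the 4 differences between single libraries, red for heavy-strand complex I mRNAs, purple for mt-Nd6 and grey for the others. The estimates run from -0.39 for mt-Nd3 to 0.30 for mt-Nd5, and every error bar crosses 0.

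Per length the members spanned about an order of magnitude. The level per kb is the normalised count divided by the annotated length, and it is given here relative to the mean of the 6 heavy-strand members of the same library. In BAT-Mito it was 2.08 ± 0.0873 for mt-Nd1, 1.12 ± 0.0158 for mt-Nd4, 1.06 ± 0.0801 for mt-Nd5, 0.876 ± 0.00942 for mt-Nd2, 0.617 ± 0.00527 for mt-Nd4l, 0.246 ± 0.00838 for mt-Nd3 and 0.198 ± 0.0395 for mt-Nd6 (SD, n = 2 each). mt-Nd1 was 1.85-fold above mt-Nd4, the next in this order. mt-Nd4 and mt-Nd5 did not differ beyond their spread, since their order turned between the libraries, and neither did mt-Nd3 and mt-Nd6. All other neighbours differed by more than the spread of their gap, the widest gap being the 2.51-fold between mt-Nd4l and mt-Nd3.

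In BAT-total the order was mt-Nd1 (2.16 ± 0.146), mt-Nd2 (1.09 ± 0.0358), mt-Nd4 (1.00 ± 0.0492), mt-Nd5 (0.846 ± 0.0978), mt-Nd4l (0.584 ± 0.0165), mt-Nd3 (0.317 ± 0.0199) and mt-Nd6 (0.244 ± 0.0285), each relative level with its SD and n = 2. All neighbours in this order differed by more than the spread of their gap. mt-Nd2 thus stood at rank 2 in BAT-total and at rank 4 in BAT-Mito, while mt-Nd1 was highest and mt-Nd3 and mt-Nd6 lowest in both fractions. From mt-Nd1 to mt-Nd6 the level per kb fell 10.6-fold in BAT-Mito and 8.87-fold in BAT-total.

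Among the 7 members, adding the nuclear copies moved mt-Nd3 and mt-Nd4l most. With the copies added to every mRNA that has one, the relative level per kb of mt-Nd4l was 1.03 ± 0.00916 in BAT-Mito and 0.964 ± 0.0261 in BAT-total, and that of mt-Nd3 0.406 ± 0.0120 and 0.522 ± 0.0309 (SD, n = 2 each). mt-Nd4l then stood at rank 3 in both fractions. In BAT-Mito mt-Nd3 then stood 2.49-fold above mt-Nd6, beyond the spread of their gap, unlike without copies. The order became mt-Nd1, mt-Nd4, mt-Nd4l, mt-Nd5, mt-Nd2, mt-Nd3, mt-Nd6 in BAT-Mito and mt-Nd1, mt-Nd4, mt-Nd4l, mt-Nd2, mt-Nd5, mt-Nd3, mt-Nd6 in BAT-total, where mt-Nd4l and mt-Nd2 did not differ beyond their spread. mt-Nd4l and mt-Nd4 are known to lie on 1 shared mRNA. Per kb, mt-Nd4l stood at 0.551 ± 0.0125 of mt-Nd4 in BAT-Mito and 0.583 ± 0.0452 in BAT-total, and with the copies added at 0.881 ± 0.0211 and 0.885 ± 0.0747 (SD, n = 2 each). By the start positions of 75-base reads that touch no other gene of the same strand, without copies, it stood at 0.710 ± 0.0161 and 0.752 ± 0.0582. The ratio thus depended on how length was counted as well as on the copies. The fractions overlapped in each version.

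Along the genome the levels of the heavy-strand mRNAs were compared with their start positions. Over the 12 heavy-strand mRNAs, Spearman's rho between start position and level per kb was -0.09 and -0.10 in the BAT-Mito libraries and -0.29 and -0.25 in the BAT-total libraries, given as a description, since all points of a library share its preparation and depth. Over the 6 heavy-strand members alone it was -0.09 and -0.03 in BAT-Mito and -0.49 and -0.49 in BAT-total. With nuclear copies added, rho over these 6 was -0.09 and -0.09 in BAT-Mito and -0.31 and -0.43 in BAT-total. Without copies, Pearson's r between start position and log2 level was -0.46 and -0.42 in BAT-Mito and -0.69 and -0.60 in BAT-total. mt-Nd1, the member nearest to the start of heavy-strand transcription, had the highest level of the 7, but mt-Cytb, the last mRNA of that strand, stood at 2.93 ± 0.0863 and 2.81 ± 0.0738 of the same mean, above mt-Nd1 in both fractions. The ratio of mt-Nd5 to mt-Nd1 per kb, far and near on the strand, was 0.469 and 0.553 in BAT-Mito and 0.343 and 0.445 in BAT-total. It was higher in both BAT-Mito libraries than in either BAT-total library (exact permutation test, two-sided p = 0.333, the smallest possible), although the nearest libraries, at 0.469 and 0.445, lay closer to each other than the replicates of either fraction.

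**Figure D5:**
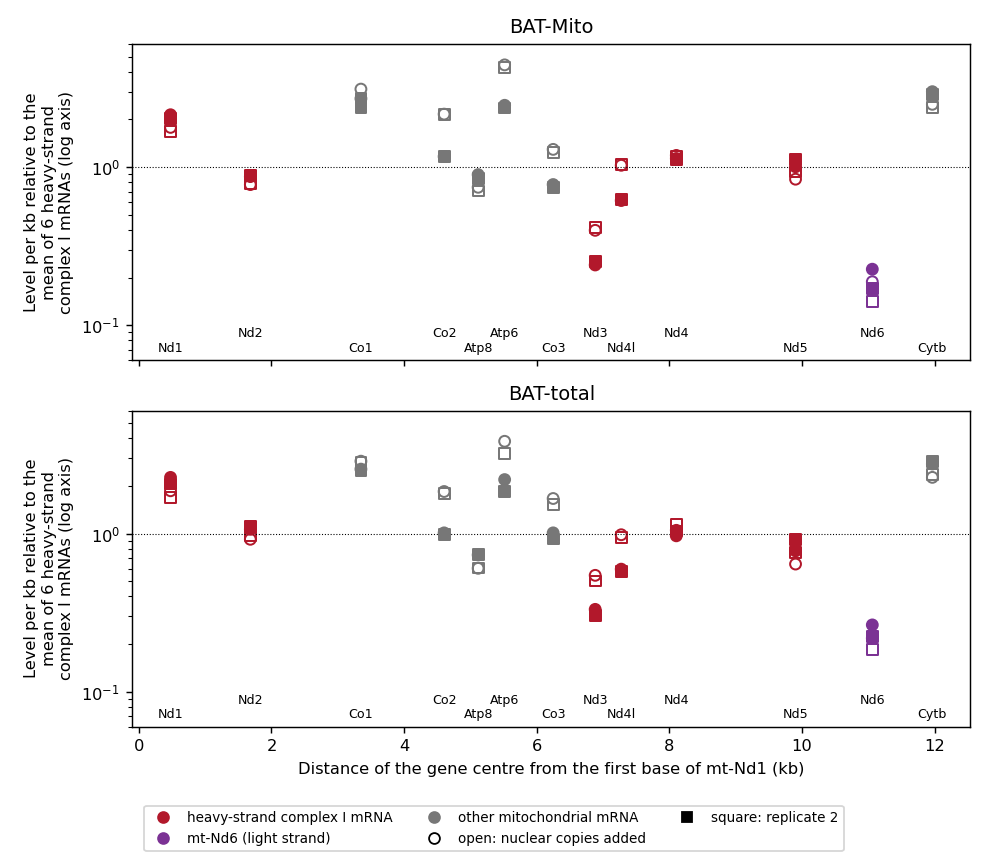
Level per kb of the 13 mitochondrial mRNAs relative to the mean of the 6 heavy-strand complex I mRNAs of the same library (log axis) against the distance of the gene centre from the first base of mt-Nd1, for BAT-Mito (top) and BAT-total (bottom). Filled points use the gene alone and open points add listed nuclear copies to each mRNA and to the mean, with circles for replicate 1 and squares for replicate 2. mt-Nd6 lies lowest in both fractions, at 0.198 and 0.244 on average, and mt-Nd3 and mt-Nd4l move up when copies are added.

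mt-Nd6 lay below the mean of the heavy-strand members in every library. Its level per kb was 0.226 and 0.170 of that mean in BAT-Mito and 0.264 and 0.224 in BAT-total, and the fractions overlapped (exact permutation test, two-sided p = 0.667). Against mt-Nd5, its neighbour on the other strand, it stood at 0.225 and 0.152 per kb in BAT-Mito and at 0.340 and 0.245 in BAT-total, without overlap but with the nearest libraries closer to each other than the replicates. Other ways of counting the length, by the start positions of 75-base or 50-base reads that touch no other gene, gave 0.180 to 0.214 of the heavy-strand mean in BAT-Mito and 0.221 to 0.264 in BAT-total. The heavy-strand precursor also runs across the place of mt-Nd6, so its value depends on counting by strand, which the sources used here do not state. Of 498 annotated genes that lie wholly within exons of the other strand, 50 were listed and 29 had values above 0 in both BAT-total libraries, where counting that ignores strand and leaves out reads of several genes would give 0. The others had no row in the table, and this count does not settle how mt-Nd6 was counted.

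Besides the members, the non-member genes whose values over the 4 libraries ran most like the mean of the members were mt-Co1 (root mean square difference 0.0650 on the log2 scale), mt-Cytb (0.0725), the copies Gm28439 (0.0807) and Gm10222 (0.0829) and Gm13340 (0.101), which matches mt-Co1. Among the members, mt-Nd1 was nearest to their mean (0.0448), and mt-Nd5 lay farther from it than mt-Nd6 (0.196). mt-Nd6 was the member whose replicates differed most in BAT-Mito. The 6 other mitochondrial mRNAs were called higher in BAT-Mito too, with a median log2 fold change of 7.61, and so were both rRNA genes, with 7.17 (SE 0.47) for mt-Rnr1 and 7.80 (SE 0.46) for mt-Rnr2. All 37 genes of the mitochondrial genome were called.

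The tRNA genes next to the members, at which precursors are cut, had smaller fold changes than the members in all but 1 case. With the deposited scaling all 7 of these tRNA genes were called higher by limma, with log2 fold changes of 7.17 (SE 0.48) for mt-Ti after mt-Nd1, 5.70 (SE 0.53) for mt-Tm before mt-Nd2, 5.17 (SE 0.47) for mt-Tw after mt-Nd2 and 4.99 (SE 0.50) for mt-Tl1 before mt-Nd1. The others were 4.80 (SE 0.47) for mt-Te beside mt-Nd6, 4.75 (SE 0.41) for mt-Tl2 before mt-Nd5 and 4.45 (SE 0.45) for mt-Tg before mt-Nd3. Except for mt-Ti, all lay below the 7.09 of mt-Nd3, the member with the smallest fold change. Relative to the 12 heavy-strand mRNAs, 5 of the 7 tRNA genes were called lower by limma, from -2.32 (mt-Tw, adjusted p 0.0282) to -3.03 (mt-Tg, adjusted p 0.00926), while mt-Tm (-1.78, adjusted p 0.0555) and mt-Ti (-0.32, adjusted p 0.645) were not, against 97.4% of all genes called lower on that scale. With CPM the direction turned, except for mt-Ti at 0.40, and the same number, 5 of 7, were called lower, as were 7963 of all 8215 genes. These tRNAs are no longer than the reads, and mt-Tl2 rested on 25 and 28 reads.

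None of the nuclear partners of the members passed the test. Of 36 nuclear complex I subunit genes, all tested, 0 were called by limma in either direction with the deposited scaling (smallest adjusted p 0.136, 7 at an unadjusted p under 0.05), and edgeR on reads also called 0. Their log2 fold changes ran from -4.14 to 0.07 with a median of -0.80, and 34 of 36 lay below 0, where the median of all genes tested was -1.23. Together they had 359 and 901 reads in BAT-Mito, where no single gene had more than 108. The log2 fold change was -0.62 (SE 0.66) for Ndufv1, which binds NADH, with 30 and 90 reads in BAT-Mito. With CPM all 36 were called lower, but so were 7963 of all 8215 genes. Without BAT-Mito replicate 1, 9 of the 36 were called lower, against 3499 of 8229 genes, and without replicate 2 it was 22, against 3872 of 8517 genes. These fits have 1 BAT-Mito library, which is assumed to vary like BAT-total, and the counts say nothing particular to complex I genes.

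No gene of the lists that serve the members was called higher. Of 16 complex I assembly factors 12 were tested, with a median log2 fold change of -0.72, 0 called higher and 1 called lower by limma. That gene was Tmem126b, a factor for building the membrane arm, with 0 reads in both BAT-Mito libraries and normalised counts of 30 and 30 in BAT-total (adjusted p 0.0249). A floor of 3 reads, taken in place of 0, would be worth 24.97 and 20.7 units in BAT-Mito. The 30 units of BAT-total were 1.31-fold above the mean of these, a rough bound without the counting error of BAT-total. With its mean of 15 the gene was not tested under the filter at 50. Of 18 factors that transcribe, process or stabilise mitochondrial RNA 14 were tested, with a median of -1.498 and 0 called by limma (1 at an unadjusted p under 0.05). Of all genes tested, 0.803% were called higher and 4.41% lower, with a median of -1.23. The counts and medians thus say nothing particular to these lists. For Lrpprc, which stabilises mitochondrial mRNAs, the log2 fold change was -1.68 (SE 0.91) from 4 and 21 reads in BAT-Mito. For Grsf1, of the mitochondrial RNA granules, it was -0.79 (SE 0.56) from 7 and 17 reads.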

How the data were processed

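RNA libraries of brown adipose tissue had been made with a stranded low-input kit for total RNA and sequenced as single 75-base reads. According to the methods of the study, trimming was followed by alignment with STAR, counting per gene with featureCounts and normalisation with DESeq2. The submitters' processing notes name Trimmomatic 0.39, STAR 2.7.10a, featureCounts 2.0.2, DESeq2 1.30.1 and the build mm10. The values deposited by the authors are a signal, namely gene counts divided by a size factor per library and rounded, called normalised counts here. In BAT-Mito 1 read was worth 8.32 units in replicate 1 and 6.90 in replicate 2, and whole reads were recovered for 100.0% of values, with a tolerance of 0.5 units plus 1e-06 of the value. In BAT-total reads were not recovered. The authors' fold changes were not used.

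Groups were taken from the labels. Genes with a mean of at least 10 (8215) were compared as log2(normalised count + 1) with limma 3.58.1 in R 4.3.3, adjusted by the Benjamini-Hochberg method and called at an adjusted p under 0.05. A second fit used values from which the mean log2 of the 12 heavy-strand mitochondrial mRNAs had been subtracted per library. Single values were compared with exact permutation tests in SciPy 1.17.1. edgeR 4.0.16 on reads was an alternative, with the deposited values of BAT-total taken as reads. BLAST 2.17.0 was used to seek copies among listed genes, with minima of 90% identity and 50 bp. GENCODE M21 gave identical coordinates for 17099 of the genes (99.1%). Neighbours in an order differed beyond the spread where their log2 gap had the same sign in both libraries and a mean above its SD. Named were all members, the other mitochondrial mRNAs and rRNAs, adjoining tRNA genes, copies of members, the 5 genes most like the members and, per nuclear list, called genes (at most 4) or otherwise the 2 with the highest mean. The values of 1 gene that this rule names are not reported here. The scripts were tested on simulated data. The members and lists were chosen with earlier results of these data known.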

Additional observations from a re-analysis of the deposited data

How the results depend on the processing

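Without 1 library each, 0 to 7 members were called higher and 0 lower, 0 to 37 mitochondrial genes were called higher, and of the nuclear complex I genes 0 to 22 were called lower and 0 higher (fits in which the lone library of a group is assumed to vary like the other group), and the median of the members ran from 7.19 to 7.63. Relative to the heavy-strand mRNAs 0 members were called without any 1 library, and mt-Nd6 ran from -0.53 to -0.15. The share of the members ran from 5.18 to 5.20% in BAT-Mito and from 2.96 to 3.41% in BAT-total, the relative level of mt-Nd6 from 0.170 to 0.226 and from 0.224 to 0.264, and 5 to 7 (BAT-Mito) and 7 (BAT-total) ranks of the order by level per kb were kept.

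The replicate number was used as a block although the labels share numbers only. Equal numbers deviated together with r = 0.11 over 8215 genes, from 1 pair of differences. With the replicate block 0 members, 0 mitochondrial genes and 0 of all 8215 genes were called (adjusted p of the members from limma 0.158, with all 7 at an unadjusted p under 0.05 and their median still 7.41). CPM gave 0 members and 1 mitochondrial gene called higher, 12 mitochondrial genes called lower, 36 nuclear complex I genes called lower (as were 7963 of all 8215 genes) and a median of 0.61, and median ratios a median of 8.06. With all genes of any count 4 of 36 nuclear complex I genes were called lower, as were 3587 of all 17259 genes.

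Without the rRNA genes the shares were 28.8 and 6.06%, and of the 13 mRNAs 39.1 and 39.4%. With nuclear copies added, an alternative chosen after seeing the data, they were 5.76 and 3.57%, the relative level of mt-Nd6 in BAT-total was 0.201, and 4 (BAT-Mito) and 3 (BAT-total) of the 7 ranks were kept. A count of start positions unique in the whole genome was not run. Other pseudocounts, filters, TMM, the trend option and edgeR kept all 7 members called.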
